A study of Mus musculus with 24 samples.

Results

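A set of 8 transcripts best known from neutrophils and other myeloid cells were followed in mouse liver over 1 day, with and without the nuclear receptors Rev-erb alpha and Rev-erb beta. The 8 genes were S100a8, S100a9, Prtn3, Elane, Mpo, Ngp, Camp and Il1b, out of 16593 genes with a named probe on the array. They were chosen by name, with all probes annotated to them, after earlier results of the same arrays had shown a high level of several of them in a single sample, the receptor-deficient liver taken at ZT0 (ZT counts hours from lights on). That level is therefore given as a description, and no test was applied to it. They were read by 10 of the 25697 probes, with 3 probes for Mpo and 1 for each other gene.

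All livers came from male C57Bl6/J mice 20 weeks old. The knockout group (double knockout, DKO) was labelled Reverbalpha/beta Alb Cre+ and the wild-type group (WT) Reverbalpha/beta Alb Cre-, so that the labels name the same receptor genes in both and differ in Cre. The albumin promoter drives Cre in hepatocytes, and blood-derived cells in the same liver are not targeted by it. Each genotype was sampled at ZT0, ZT4, ZT8, ZT12, ZT16 and ZT20, and each of the 12 RNA samples was hybridised to 2 arrays that the labels call technical replicates. Each such pair was averaged, which gave 12 values from 24 arrays, 6 for either genotype. The labels do not state how many mice stood behind an RNA sample. Times of day stood in for replicates, and p-values cover only the spread of these samples around the model, part of which may be technical.

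Neutrophils are short-lived white blood cells that carry ready-made proteins in granules. The azurophil granules, filled early in bone marrow development, hold myeloperoxidase (Mpo) and the serine proteases neutrophil elastase (Elane) and proteinase 3 (Prtn3), while the later specific granules hold the cathelicidin Camp and the related neutrophilic granule protein (Ngp). The calcium-binding proteins S100a8 and S100a9 pair as calprotectin in the cytosol of neutrophils and monocytes, and Il1b encodes interleukin-1 beta, an inflammatory cytokine made by activated macrophages, monocytes and neutrophils. Transcripts of the granule proteins are abundant in marrow precursors and mostly shut off in mature blood neutrophils, whereas S100a8 and S100a9 transcripts persist. The liver holds a large resident macrophage population, the Kupffer cells, and in whole tissue more cells of a type and more RNA per cell cannot be told apart.

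Among the 8 genes were 2 pairs of direct neighbours, S100a8 with S100a9 on chromosome 3 and Prtn3 with Elane on chromosome 10, with 0 genes listed between the partners in the RefSeq gene table. Their promoters are shown because the first pair was high together in the DKO ZT0 liver whereas, in the second pair, Prtn3 was high and Elane was not. The 300 bases run from 250 before to 50 after the start of each gene in RefSeq (GRCm38.p6), at chr3:90668821-90669120 (plus strand) for S100a8, chr3:90695672-90695971 (minus strand) for S100a9, chr10:79879417-79879716 (plus strand) for Prtn3 and chr10:79886062-79886361 (plus strand) for Elane. They are written 5′ to 3′ on the strand of the gene, and capitals mark matches, on either strand, to a C/EBP motif (TTNNGNAA) or to a PU.1 motif (GAGGAA), the motifs of transcription factors that drive granulocyte genes.
S100a8: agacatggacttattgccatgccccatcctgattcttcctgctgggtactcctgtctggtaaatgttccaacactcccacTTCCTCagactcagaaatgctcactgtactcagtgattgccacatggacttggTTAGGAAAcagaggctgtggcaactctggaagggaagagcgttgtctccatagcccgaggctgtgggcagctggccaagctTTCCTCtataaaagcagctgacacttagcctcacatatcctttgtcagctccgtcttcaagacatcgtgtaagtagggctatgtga
S100a9: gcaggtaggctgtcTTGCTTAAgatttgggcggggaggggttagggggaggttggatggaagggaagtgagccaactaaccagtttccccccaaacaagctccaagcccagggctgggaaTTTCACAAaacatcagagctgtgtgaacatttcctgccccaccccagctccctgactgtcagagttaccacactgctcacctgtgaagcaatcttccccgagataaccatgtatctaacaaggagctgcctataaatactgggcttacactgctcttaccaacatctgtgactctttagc
Prtn3: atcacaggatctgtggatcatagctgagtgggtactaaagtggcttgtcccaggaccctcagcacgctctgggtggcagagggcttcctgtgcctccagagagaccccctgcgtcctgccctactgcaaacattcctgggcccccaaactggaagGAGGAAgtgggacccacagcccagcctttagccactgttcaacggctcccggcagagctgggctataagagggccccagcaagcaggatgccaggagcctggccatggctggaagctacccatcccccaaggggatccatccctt
Elane: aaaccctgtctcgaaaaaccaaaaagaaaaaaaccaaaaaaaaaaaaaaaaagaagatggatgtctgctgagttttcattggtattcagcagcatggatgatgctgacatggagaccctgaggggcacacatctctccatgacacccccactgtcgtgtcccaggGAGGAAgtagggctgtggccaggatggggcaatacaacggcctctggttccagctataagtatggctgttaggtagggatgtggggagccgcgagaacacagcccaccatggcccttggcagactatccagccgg

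The matches fell differently in the 2 pairs. S100a8 held 1 C/EBP match, starting 117 bases before the gene start, and 2 PU.1 matches, and S100a9 held 2 C/EBP matches and no PU.1 match. Prtn3 and Elane each held 1 PU.1 match, starting 95 and 85 bases before the gene start, and no C/EBP match. Of all 8 members, 4 held the C/EBP motif and 4 the PU.1 motif, while 40.7% and 28.3% of 32851 mouse promoters of the same length held them. The half-site AGGTCA, to which Rev-erb and the related ROR receptors bind, was in 0 of the 8 promoters (16.3% of all promoters), and an NF-kappa-B motif was in 0 (4.79%). These are letter matches in a short window and say nothing about binding.

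Raw median signals were 245.4 to 340.6 units per array, 34.8 to 40.2% of probes were detected, and the 2 arrays of a sample correlated at 0.988 to 0.992. By slide, the first 4 DKO times shared slide 1, the last 2 DKO times and the first 2 WT times shared slide 2, and the 4 later WT times shared slide 3. At every time the DKO and WT arrays sat on different slides, so that a slide effect and a genotype effect cannot be told apart there. The better detected probe of Nr1d1, which encodes Rev-erb alpha, ranged from 6.42 to 10.51 (log2) over the WT times and from 8.81 to 11.03 over the DKO times, and that of Nr1d2 from 7.70 to 10.92 and from 9.58 to 10.14. The position of these probes relative to the deleted exons was not known, so they do not check the labels.

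Only 4 of the 8 members could be measured across these livers. A probe was called detected on an array where its detection p-value, against the negative controls, was under 0.01, and genes detected on both arrays of 2 or more RNA samples were kept for testing. S100a8 was detected on 24 of 24 arrays, Il1b on 23, S100a9 on 16 (8 WT and 8 DKO) and Prtn3 on 9 (3 WT and 6 DKO), and these 4 genes were kept among 7272. Elane was detected on 5 arrays, 3 WT and 2 DKO, never on both arrays of a sample and on 0 of the 2 DKO ZT0 arrays. The 3 Mpo probes, Ngp and Camp were detected on 0 arrays. At a looser limit of 0.05, Elane was detected on 15 arrays, Ngp on 7, and Mpo and Camp still on 0. The label neutrophil granule genes was therefore not borne out by most granule proteins, and the data held a level for 1 granule protease (Prtn3), for the calprotectin pair and for Il1b.

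The signals of the neighbours Prtn3 and Elane differed in the DKO ZT0 liver. The Prtn3 probe read 5950 and 5140 units on the DKO ZT0 arrays and between 238 and 716 (median 307) on the other 22. The Elane probe read 395 and 376 units on the DKO ZT0 arrays and between 264 and 392 (median 312) on the other 22. The DKO ZT0 arrays had raw medians of 340.6 and 325.3 units, the highest of all arrays, so raw signals ran high there. After normalization Elane read 6.69 and 6.75 (log2) on them, below the highest other array (7.26, of DKO ZT8), while the lowest DKO ZT0 array of Prtn3 read 12.25 against 8.94 for the highest other array. For Camp and Ngp, undetected throughout, the lowest DKO ZT0 array lay -0.04 and -0.25 from the highest other array. The higher DKO ZT0 array exceeded all others, at 5.95 against 5.73 for Camp and 6.82 against 6.72 for Ngp. DKO ZT0 minus the mean of the other 5 DKO times was 0.58 for Camp and 0.56 for Ngp. The 3 Mpo probes gave no common direction, with DKO ZT0 minus the mean of the other 5 DKO times at 0.23, 0.23 and -0.14 on the log2 scale.

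**Figure D1:**
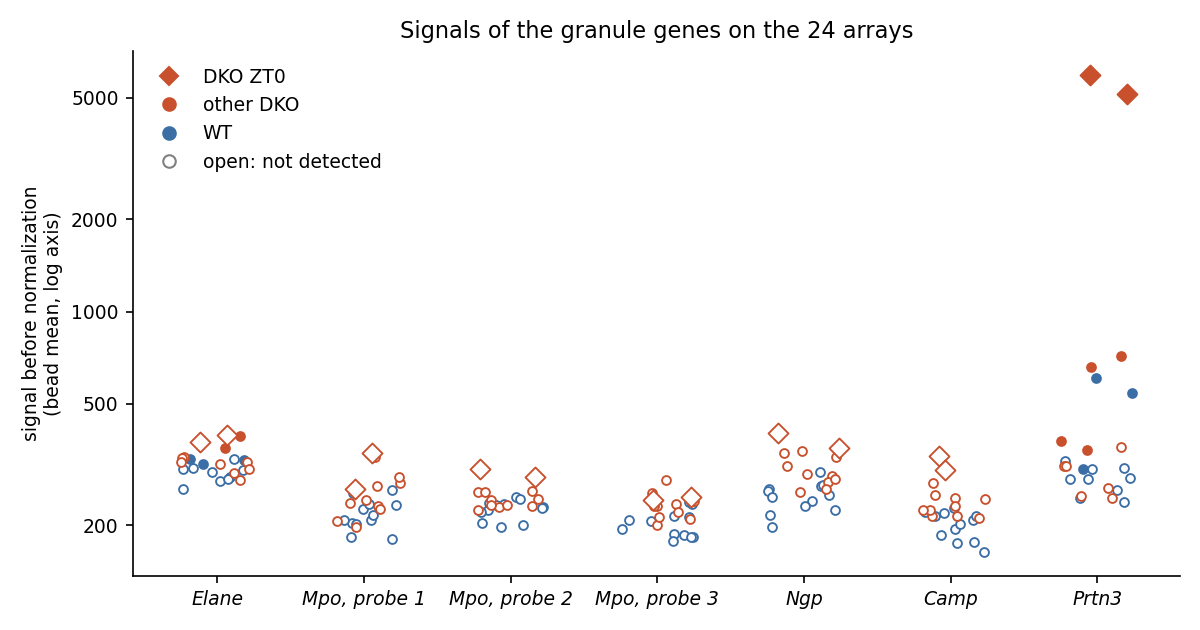
Raw probe signal (log axis, arbitrary units) on every array for the granule genes, with filled symbols where detected, open symbols where not, and diamonds for the DKO ZT0 arrays. The 2 DKO ZT0 arrays of Prtn3 stand at 5950 and 5140 units, whereas Elane, Mpo, Ngp and Camp stay at or below 401 units on every array.

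S100a8, a calprotectin subunit, was the only one of the 8 members detected on every array. In WT livers its log2 level was 8.78, 9.01, 9.20, 9.62, 9.44 and 9.53 at ZT0, ZT4, ZT8, ZT12, ZT16 and ZT20. In DKO livers it was 12.17, 9.61, 10.46, 9.98, 8.94 and 9.77 at the same times. DKO ZT0 was the highest sample, DKO ZT8 the second, and DKO ZT12 and DKO ZT20 followed, each without overlap of its arrays with the next, while WT ZT0 was the lowest. From WT ZT12 (9.62) through DKO ZT4 and WT ZT20 to WT ZT16 (9.44) the arrays of neighbouring samples overlapped. DKO ZT0 stood 2.42 above the mean of the other 5 DKO times (SD 0.56), which is 5.35-fold, and 10.5-fold above WT ZT0.

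S100a9, its partner, followed a similar order at the top. Its log2 level was 6.52, 6.70, 7.39, 7.83, 7.40 and 7.77 from ZT0 to ZT20 in WT and 9.46, 6.82, 8.18, 6.87, 6.82 and 7.76 in DKO. DKO ZT0 was highest and its arrays stood clear of all others, whereas the arrays of DKO ZT8, the second, overlapped with those of WT ZT12. The probe was on neither array detected in WT ZT0, WT ZT4 and DKO ZT12, so the levels there are bounds. DKO ZT0 was 2.17 above the mean of the other DKO times (SD 0.64), or 4.51-fold, and at least 5.14-fold above WT ZT0. Bounds of this kind set the mean of the bright sample against the dim probe or the lowest detected signal on each array, whichever is higher.

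Prtn3, the proteinase 3 gene, had the largest excess. In WT livers its log2 level was 6.12, 6.61, 6.51, 8.35, 6.46 and 5.90 from ZT0 to ZT20. In DKO livers it was 12.35, 6.38, 8.86, 7.25, 5.95 and 5.52. Both arrays detected the transcript in 4 samples, DKO ZT0, DKO ZT8, WT ZT12 and DKO ZT12, in that order and without overlap between them. Apart from 1 array of WT ZT16, the other samples were below the detection limit and cannot be ranked. DKO ZT0 was 11.2-fold above DKO ZT8, 15.9-fold above WT ZT12 and at least 38.0-fold above WT ZT0. It lay 5.56 above the mean of the other 5 DKO times (SD 1.32), the highest of such differences among 7272 genes, a mean that holds 3 samples below the detection limit.

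Il1b, the cytokine gene, had a different second-highest sample. Its log2 level was 8.00, 7.16, 6.94, 7.99, 7.86 and 7.42 from ZT0 to ZT20 in WT and 10.36, 7.88, 7.84, 9.04, 7.85 and 8.13 in DKO. DKO ZT0 stood first and DKO ZT12 second, and DKO ZT8, second for the other 3 detected members, was within the range of the WT samples. DKO ZT0 was 2.21 above the mean of the other DKO times (SD 0.51), or 4.63-fold, and 5.11-fold above WT ZT0.

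**Figure D2:**
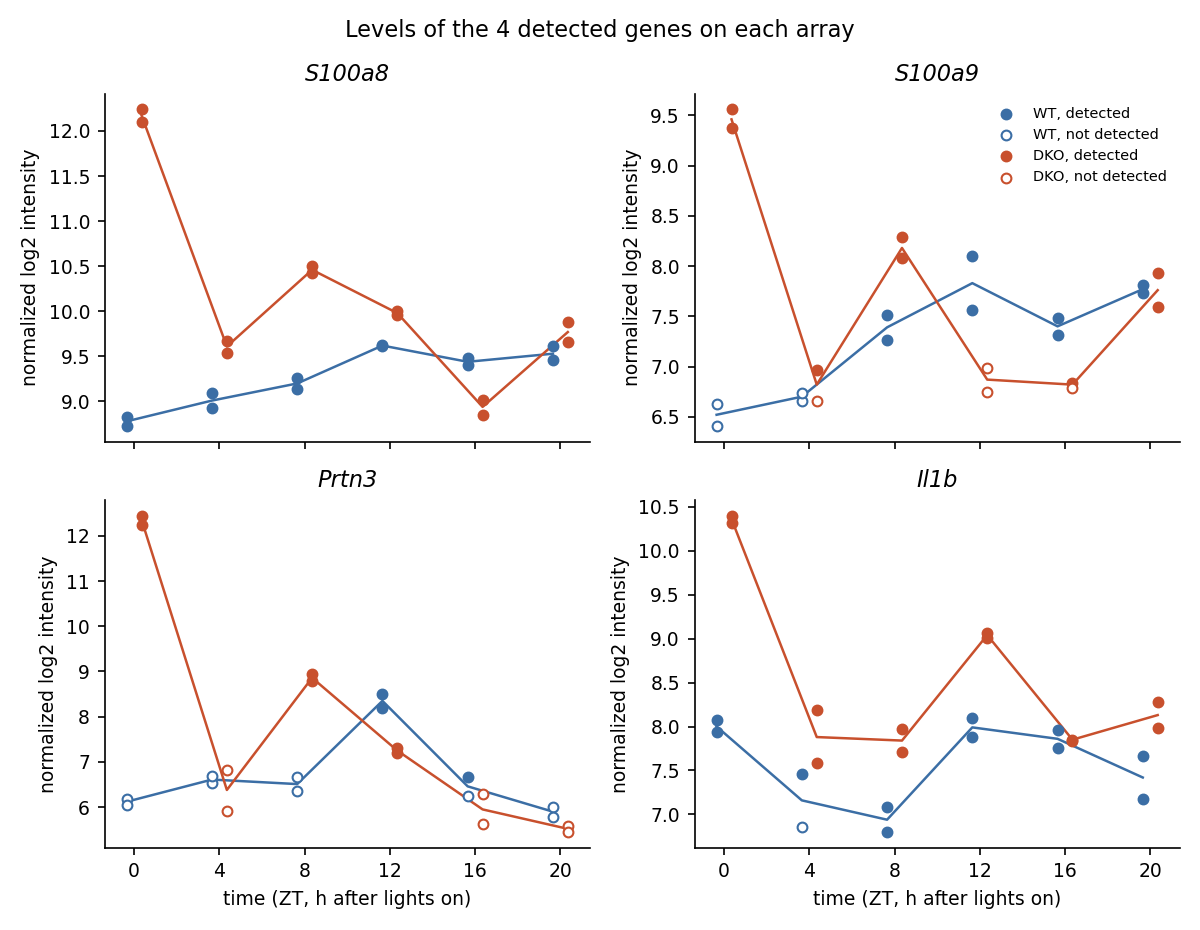
Log2 level of S100a8, S100a9, Prtn3 and Il1b against time of day (h after lights on), 1 panel per gene, with every array as a point, open where not detected, and lines through the averages of the 2 arrays of each sample for WT and DKO. The DKO ZT0 arrays lie above all other arrays in all 4 panels, and the second-highest sample is DKO ZT8 for 3 genes and DKO ZT12 for Il1b.

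In the 4 detected members both DKO ZT0 arrays exceeded every one of the other 22 arrays, by 1.60 for S100a8, 1.08 for S100a9, 3.30 for Prtn3 and 1.25 for Il1b (log2, lowest DKO ZT0 array minus highest other array). A gap of at least 1 was met by 41 of 7272 genes, or 0.564%, and by 53, or 0.729%, over the other DKO arrays alone, and 0.055% lay as far below the other DKO arrays. Since this sample chose the members, nothing is read from their count. Ranked by the difference between DKO ZT0 and the mean of the other DKO times, Prtn3 was number 1, S100a8 number 18, Il1b number 21 and S100a9 number 22. The same difference had a median of -0.01 over all kept genes, with a 5th to 95th percentile range of -0.56 to 0.70. Against the other 3 DKO samples on its own slide, the DKO ZT0 excess was 2.15 for S100a8, 2.17 for S100a9, 4.85 for Prtn3 and 2.11 for Il1b; the Prtn3 value is lower than the 5.56 over all DKO times, and both rest in part on samples below the detection limit. With no background correction the gaps were smaller, 0.72 for S100a9 and 2.82 for Prtn3, and DKO ZT0 remained above all other arrays for all 4 genes.

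Whether the knockout differed from WT outside ZT0 was asked first time by time. At each time a gene was counted as apart where the arrays of 1 genotype lay at least 1 (log2) above those of the other, with no test, as there was 1 RNA sample per genotype. At ZT0 all 4 detected members were counted as higher in DKO, against 3.34% of all genes (1.47% were lower), a level that had chosen them. At ZT8, 2 of the 4 were counted as higher in DKO, against 1.77% of all genes, and 0 as lower, against 1.49%. S100a8 differed there by 1.26, and Prtn3, undetected on both WT ZT8 arrays, was at least 4.45-fold higher in DKO. S100a9 and Il1b were also higher at ZT8, by 0.80 and 0.89, with no overlap of their arrays but short of the gap. No background correction, median scaling and the values processed by the authors each brought the gap of S100a8 at ZT8 below 1, while Prtn3 stayed past the gap in all 5 settings, with a measured difference of 2.36 that was 1.13 with no background correction and 1.16 with the authors' values.

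At the remaining times 0 of the 4 were counted in either direction, where 0.509% (ZT4), 1.46% (ZT12), 1.14% (ZT16) and 1.44% (ZT20) of genes were counted as higher in DKO and 0.564%, 1.93%, 0.866% and 1.31% as lower. S100a8 differed by 0.60, 0.36, -0.50 and 0.24 (DKO minus WT) at ZT4, ZT12, ZT16 and ZT20, and with median scaling by -0.05 and -0.08 at ZT12 and ZT20. Prtn3 was lower in DKO at ZT12, with a difference of -1.11 that reached the gap only with median scaling (-1.51), and the WT ZT12 sample was the highest of its genotype. S100a9, undetected in DKO at ZT12, was at least 1.79-fold higher in WT there, and differed by -0.58 at ZT16. Il1b was higher in DKO at ZT4, ZT12 and ZT20, by 0.73, 1.05 and 0.71, and level with WT at ZT16 (-0.01).

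**Figure D3:**
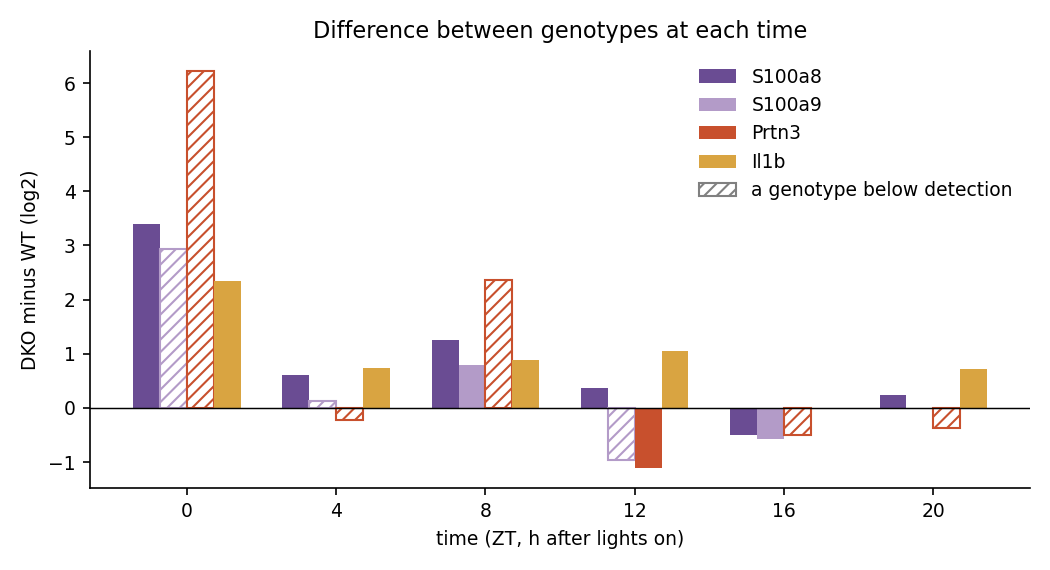
DKO minus WT difference (log2) at each of the 6 times for the 4 detected members, as bars, each the difference between 2 averages of 2 arrays, with no error bar because each average is 1 RNA sample; hatched bars are differences in which a genotype was detected on neither array. All 4 genes have their tallest bar at ZT0, where the measured ones are 3.39 (S100a8) and 2.35 (Il1b) and the hatched ones stand for at least 38.0-fold (Prtn3) and at least 5.14-fold (S100a9).

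Over ZT4 to ZT20, none of the 4 passed the test of a daily mean difference between genotypes. ZT0 was left out because the DKO level there had above all chosen the members. Results of the other times were also known at that choice, so these times are not independent of it. The test was a limma fit of a 24 h harmonic model to 10 averages, 5 per genotype, with Benjamini-Hochberg adjustment over 7213 genes. At an adjusted p under 0.05 it called 358 genes, or 4.96% (2.23% higher and 2.73% lower in DKO), and 0 of the 4 members, with 1 member, Il1b, at an unadjusted p under 0.05. Il1b had the largest mean difference, 0.66 ± 0.25 (SE, n = 5 times per genotype), or 1.58-fold, with a limma adjusted p of 0.171. It was higher in DKO at 4 of 5 times. S100a8 differed by 0.40 ± 0.23 (limma adjusted p = 0.342), higher in DKO at 4 of 5 times. S100a9 differed by -0.04 ± 0.35 (limma adjusted p = 0.964) and Prtn3 by 0.02 ± 0.43 (limma adjusted p = 0.988). Prtn3 was below the detection limit in both genotypes at ZT4 and ZT20, so its estimate rests partly on background signal.

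With ZT0 included, the mean DKO minus WT differences of all 6 times were 0.89 for S100a8 and 0.95 for Il1b, the 2 members detected in both genotypes on at least 1 array at every time. A fit with time as a factor called Il1b (limma adjusted p = 0.0429), as did a fit with the technical arrays as separate samples (limma adjusted p = 0.0127). The second fit counts 2 arrays of 1 RNA sample as independent, so its p-value is too small. With slide as a fixed block the Il1b difference turned to -1.33 (limma adjusted p = 0.579). On slide 2, which held both genotypes at different times, DKO minus WT was 0.46 for S100a8 and 0.41 for Il1b, while Prtn3 was detected on 0 arrays of that slide and S100a9 on 0 of its WT arrays.

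A daily rhythm in WT livers was not called for any detected member. The limma F test of the 24 h cosine and sine over the 12 averages called 13 of 7272 genes, or 0.179%, and 0 of the 4 members, none of which had an unadjusted p under 0.05. The fitted amplitude was 0.37 ± 0.39 for S100a8, 0.58 ± 0.39 for S100a9, 0.85 ± 0.97 for Prtn3 and 0.34 ± 0.43 for Il1b (log2, SE), with limma adjusted p-values of 0.842, 0.680, 0.863 and 0.884. The standard error exceeded the amplitude for S100a8, Prtn3 and Il1b and was below it for S100a9. Both genotypes share an estimate of spread in this fit. The DKO ZT0 sample that chose the members thus enters these standard errors, and the test may miss a WT rhythm. S100a8 and S100a9 were nevertheless lower at ZT0 and ZT4 than at ZT12 to ZT20 in WT, without overlap of the arrays, and those early samples lay on slide 2 and the later ones on slide 3.

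The calprotectin pair had similar profiles. Over the 12 averages the Pearson correlation of S100a8 with S100a9 was 0.88, without DKO ZT0 it was 0.69 over 11, and over the 6 WT samples it was 0.96. S100a8 and Prtn3 gave 0.89, 0.61 and 0.46 in the same order. Il1b correlated with S100a8 at 0.82 over the 12 samples and at 0.42 without DKO ZT0, and with S100a9 at 0.58 and -0.10. The likeness of Il1b to both was lower once that 1 sample was left out. These values share slides and normalization and are given as a description.

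Over the 12 averages, the genes closest to S100a8 were Btk and Dok3 (both 0.96), the first a tyrosine kinase of B cells and myeloid cells, followed by Acer2, Rassf4 and Tgm2 (0.94 each). Those closest to S100a9 were Rap1b (0.94), Fbxl14 and Acer2 (both 0.90), Btk (0.88) and Pros1 (0.86). Without DKO ZT0 the correlation with Btk was 0.85 for S100a8 and 0.67 for S100a9. Those closest to Prtn3 were Cyb561 and Cd40 (both 0.95), Asah1 (0.93), Clec4g and Dnajc12 (both 0.92). The 5 closest to Il1b, at 0.95 each, were Fpr2, a formyl peptide receptor of phagocytes, P2ry13, Dram1, the complement gene C1qb and the Fc receptor gene Fcgr4. The mean profile of the 4 members was closest to Asah1 (0.95), Lrrc75a, Rassf4, Dok3 and Btk (0.94 each).

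Without DKO ZT0, over 11 averages, most of these names changed. The 5 genes closest to S100a8 were then Lancl2 (0.94), Cfap97 (0.86), Pdcd10, Btk and Timeless (0.85 each), and those closest to S100a9 were Rcc1 (0.88), Gnptab (0.86), Rap1b (0.85), Ercc5 (0.84) and Mapk8 (0.83). Those closest to Il1b were Serpinb6a (0.91), Tcaim (0.89), Cd248 and the macrophage transcription factor gene Spic (both 0.88), and C1qb (0.85). Those closest to Prtn3, by then below the detection limit in most samples, were Grhpr (0.92), Cyb561, Mbd3l2 and Traf6 (0.89 each) and Kin (0.88). The mean profile was closest to Palmd and Foxo1 (both 0.89), Tmem68 (0.88), Ppp2r2c and Traf6 (both 0.87).

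Other genes of the granules gave a mixed picture at DKO ZT0. Of 12 azurophil granule genes on the array, 6 were kept, and Prtn3, chosen for this sample, is left out of the counts. Of the other 5 kept genes, 0 exceeded all other DKO arrays by at least 1, a gap that 0.729% of all genes met. They were Lyz2 and Lyz1 (lysozymes, which share sequence), Ctsc (the protease that activates the granule proteases), Cd63 and Srgn, with DKO ZT0 above the mean of the other DKO times by 0.96, 0.83, 0.74, 0.73 and 0.30. Lyz2 is also a macrophage gene. Ctsg (cathepsin G), Bpi and Ms4a3 were detected on 0 arrays, as was Mpo. The median over these 5 genes was 0.74, against -0.01 over all genes, whose 95th percentile was 0.70.

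Of 16 specific and gelatinase granule genes, 7 were kept, and 1 exceeded all other DKO arrays by at least 1, against 0.729% of all genes. It was Lcn2, an iron-siderophore binding protein that hepatocytes also make in the acute phase, which was 3.69 above the mean of the other DKO times. Ltf (lactoferrin) was 2.72 higher and was detected on 5 arrays, both DKO ZT0 arrays among them. It passed the detection filter only with the ZT0 samples counted, as did Spink1, Birc5 and Cd79b, named below. For these genes the filter itself favoured a high DKO ZT0 level, and the medians of their lists include them. The other kept genes, Cyba, Chil1, Mmp9, Hp and Arg1, were at 0.94, 0.83, 0.36, 0.06 and -0.03. Hp, like Lcn2, is also among the acute phase proteins given below, so its level need not come from granulocytes. The median of the 7 was 0.83. Mmp8, Cybb, Pglyrp1 and Cd177 were detected on 0 arrays, as were Camp and Ngp. Chil3 was detected on 1 array, of DKO ZT0.

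Of 26 genes of the neutrophil cytosol and surface, 8 were kept and 16 were detected on 0 arrays, Cxcr2, Itgam, Retnlg, Stfa1, Trem1 and Padi4 among them. Without S100a8 and S100a9, 1 of the 6 kept genes, Fpr2 (2.59), exceeded all other DKO arrays by at least 1, against 0.729% of all genes. Ncf4, a subunit of the phagocyte oxidase, was 1.24 higher. Csf3r, the receptor for granulocyte colony-stimulating factor, was detected on 6 arrays, both DKO ZT0 arrays among them. The median of those 6 was 0.76. Of the 5 kept granulocyte transcription factor genes, 0 exceeded all other DKO arrays by at least 1, against 0.729% of all genes. Cebpe was at -0.50, Cebpb at -0.02 and Spi1 (PU.1) at 0.08, and the median of the 5 was -0.02. Cebpa was at -0.79, below the 5th percentile of all genes (-0.56).

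Of 17 kept genes of neutrophil attraction and interleukin-1 signalling, with Il1b left out, 1 passed the gap of 1, against 0.729% of all genes. In the same sample 15 of the 17 lay above 0, where the median of all genes was -0.01. Cxcl1, a neutrophil attractant, was 2.45 above the other DKO times, Ccl4 1.96, Socs3 1.75 and Irak3 1.67, and Cxcl1 was the gene past the gap, while Nfkbia was at -0.11 and Il1rap at -0.19. Cxcl2, Il6, Tnf and Csf3 were detected on 0 arrays, and Ccl3 on 2, both of DKO ZT0. The median of the 17 was 0.56. Among acute phase proteins, which hepatocytes secrete in inflammation, 2 of 20 kept genes passed the gap, Lcn2 and Apcs (2.17), against 0.729% of all genes. Orm2 was 2.78 higher. Saa1 and Saa2, detected on 9 and 7 arrays, were 1.18 and 1.17 above the mean of the other DKO times. Their lowest DKO ZT0 array minus the highest other array was -1.58 and -2.88, and -0.35 and -0.15 over DKO arrays alone. WT arrays thus read highest for both, and Saa2 was detected on 1 DKO ZT0 array. Hp, Hpx and Fga differed by 0.06, -0.04 and 0.09. Quantile normalization holds the brightest probes nearly level on every array, so flat values of abundant transcripts say little.

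The protease inhibitors split. Spink1 (on the fixed list under its older name Spink3) was 2.84 higher at DKO ZT0 and detected on 6 arrays, whereas Serpina1b, Serpina1c and Serpina1d, near-identical genes for alpha-1 antitrypsin whose probes may share signal, differed by -0.02, 0.01 and -0.01. The median of the 12 kept inhibitor genes was 0.03. Their summed level was 18.78 at DKO ZT0, and the limit given above for flat values of abundant transcripts holds here too.

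Markers of other cells were measured beside the members at DKO ZT0, and their differences went both ways. Of 14 kept Kupffer cell and macrophage genes, 0 passed the gap of 1, against 0.729% of all genes. Above 0 lay 13 of the 14, where the median of all genes was -0.01. The median of the 14 was 1.05, with Marco at 1.64, Folr2 at 1.42, Spic at 1.36 and Gpnmb at -2.15. The summed level of that list was 16.02 at DKO ZT0, 15.17 to 15.44 at the other DKO times and 14.67 to 15.17 in WT. For the 4 kept monocyte genes the median was 0.80, with Plac8 at 1.21 and Lst1 at 1.03, and the summed level was 11.14 against 10.06 to 10.23 and 9.86 to 10.20. Of the defining monocyte markers, Ccr2 and F13a1 were detected on 0 arrays. The 3 kept erythroid genes had a summed level of 16.21 against 14.18 to 15.09 and 14.71 to 16.00, led by the haemoglobin gene Hba-a1 (1.78).

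Platelet factor Pf4, the 1 kept platelet gene, was 1.61 higher, and the 6 kept genes of proliferation and marrow progenitors had a median of 0.54, with Birc5 at 1.21. Endothelial and stellate genes had a median of 0.33 over 10, with Cdh5 at 0.93 and Lrat at -0.67. The 9 kept hepatocyte genes had a median of -0.01, with a summed level of 18.75 at DKO ZT0 and 18.75 to 18.83 elsewhere. Ttr, Apoa1, Apoa2, Cyp2e1 and Trf differed by -0.04 to 0. Quantile normalization holds the brightest probes nearly level on every array, so a flat list of abundant transcripts says little about hepatocytes. The 7 genes of mast cells, basophils and eosinophils on the array were detected on 0 arrays, 8 of 11 T and NK cell genes likewise, the 1 kept T and NK cell gene, Ccl5, was at -0.62, and the B cell genes Cd79b and Cd74 were at 1.17 and -0.57. The part of these cells in the levels of the 8 members was not tested.

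**Figure D4:**
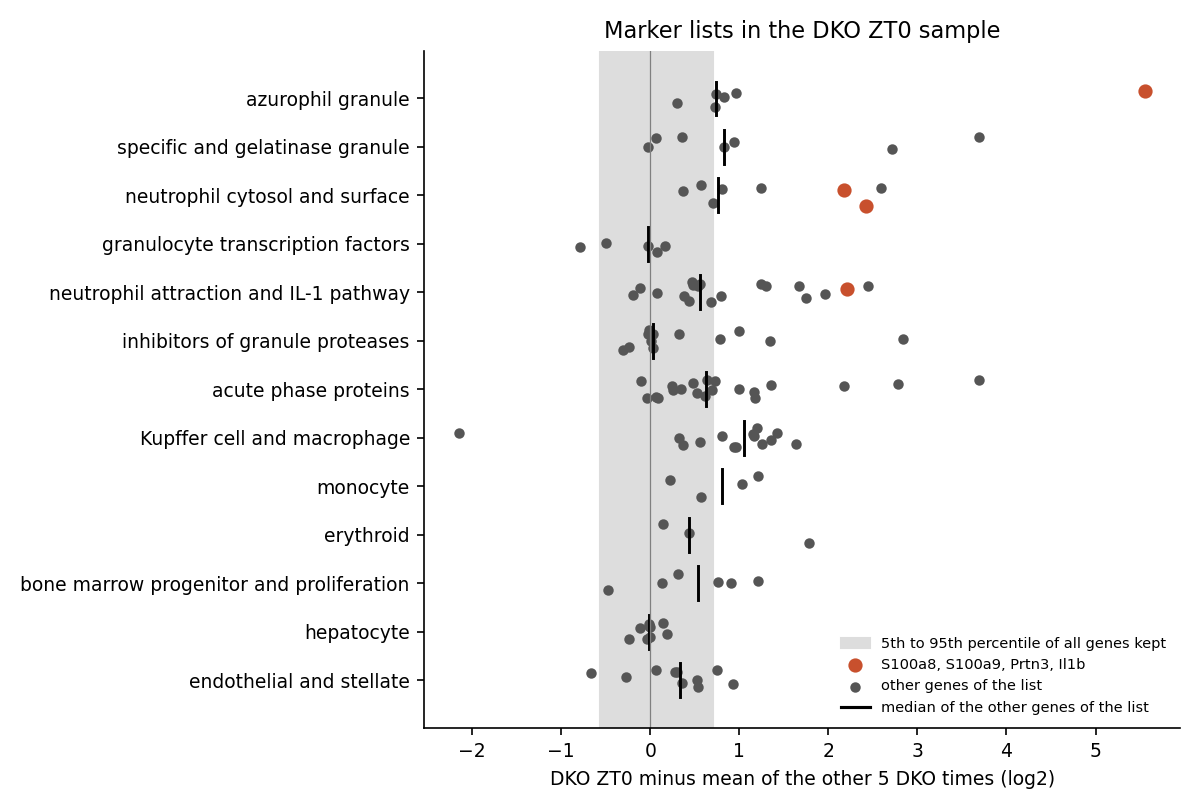
DKO ZT0 minus the mean of the other 5 DKO times (log2) for every kept gene of 13 marker lists, with a bar at the median of the genes of each list other than the members and a shaded band from the 5th to the 95th percentile of all kept genes. Prtn3 lies apart at 5.56, and the lists of neutrophil cytosol and surface, monocyte and Kupffer cell genes have medians of 0.76, 0.80 and 1.05. The hepatocyte list has a median of -0.01, which says little, as quantile normalization holds the brightest probes nearly level.

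In the ZT4 to ZT20 comparison, 9 of 112 tested genes of these lists that are not members were called between genotypes, or 8.04%, against 4.96% of all genes. Cyba, a subunit of the phagocyte oxidase, rose by 0.46 ± 0.08 in DKO (limma adjusted p = 0.0232). The limma adjusted p of Cyba was 0.166 with median scaling, and 0.0779 to 0.528 with any 1 time left out. The chemokine gene Ccl4 rose by 1.37 ± 0.18 (limma adjusted p = 0.0113), and by 0.74 with no background correction and 0.75 with the authors' values. Wfdc21 fell by 1.01 (limma adjusted p = 0.0298) and was the 1 called of 8 neutrophil cytosol and surface genes. Among 11 tested inhibitors of granule proteases, Serpinb1a, which blocks elastase, cathepsin G and proteinase 3, was lower in DKO (limma adjusted p = 0.00579). It was detected on 12 of 12 WT arrays and 0 of 12 DKO arrays, and its WT level at ZT4 to ZT20 was at least 3.25-fold higher. Wfdc12, which 12 DKO arrays but just 2 WT arrays detected, rose (limma adjusted p = 0.00971), with a measured difference of 2.79 that was 1.53 with no background correction and 1.55 with the authors' values. Serpinb1a is also expressed outside blood cells.

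Of the other lists, the acute phase gene Saa4 fell by 1.26 (limma adjusted p = 0.0053, 1 of 20). The macrophage gene Gpnmb, detected on 4 of 12 WT arrays, rose by 2.88 (limma adjusted p = 0.0234, 1 of 14), and by 1.66 with no background correction. The replication gene Mcm5 rose by 1.03 (limma adjusted p = 0.0329). The single Alb probe, detected on 8 WT arrays and 1 DKO array, fell by 1.01 (limma adjusted p = 0.0362). Its difference was -0.36 with no background correction and -0.38 with the authors' values, and rests on signal near the detection limit. The azurophil granule, granulocyte transcription factor, monocyte, erythroid and endothelial lists had 0 calls, against 4.96% of all genes. Without ZT20, limma called 0 genes in all, so that none of these 9 calls held, and without ZT16 all but Wfdc12 (limma adjusted p = 0.0432) were lost. Such fits rest on fewer averages and have less power. Without ZT20 all 9 differences kept their direction, with Wfdc12 at 1.88 and Ccl4 at 1.43. With slide as a fixed block limma called 0 genes, and Wfdc21 and Alb turned to 0.10 and 0.32. The others of the 9 kept their direction in that fit, some larger (Ccl4 2.64) and some smaller (Wfdc12 0.58).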

How the data were processed

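Scanner output came from GenomeStudio, per the submitters' processing notes (version not stated). Per the file headers, the authors deposited for every probe a bead-averaged intensity on a linear scale, not normalized across arrays. The detection p-value is also deposited, and compares each probe with negative control beads. Bead numbers (38.1 to 40.6 per probe on average, 19 to 61 for the member probes) and their standard errors stand beside it. Intensity values processed by the authors, deposited in a second table with an unstated normalization, served as an alternative. No genome build was stated, and promoters and neighbours come from RefSeq tables.

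Signals were corrected in R 4.3.3 with limma 3.58.1 (normexp with control parameters from the detection p-values, offset 16), quantile normalized and put on the log2 scale. Probes were named through the platform annotation, in which 23978 of 25697 probes had 1 symbol, 0 several and 1719 none listed. The kept probe with the highest mean stood for each gene. Technical arrays were averaged: their squared differences, over the bead error, had a median of 0.513 to 0.874 within a sample and 1.31 to 2.09 against the nearest other time. The harmonic model had a mean, a cosine and a sine for each genotype, with 4 residual and 3.25 prior degrees of freedom for ZT4 to ZT20 and 6 and 3.31 for the rhythm. The number of RNA samples limits the precision. The fit was tested on simulated data.

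The members and the marker lists were chosen with earlier results of these data known. Named beside the members were the 5 genes with the most similar profiles, with and without DKO ZT0, and from each list up to 4 genes with the largest DKO ZT0 difference and all that passed the daily mean test; further genes named from the lists, and undetected ones, were chosen after their values were seen. Alternatives covered the background offset, no background correction, median scaling, the authors' values, the filter on dim probes, all kept probes, arrays as separate samples, slide as a block, an intensity trend, time as a factor, and leaving out each array number and each time. Replicate numbers did not pair the arrays: array 1 minus array 2 correlated at -0.05 to 0.06 between groups over 66 pairs of groups. The number of sample columns not used was 0.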

Additional observations from a re-analysis of the deposited data

Results flagged for a closer look

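Among the 6 WT samples, Prtn3 at ZT12 (8.35) stood apart from the rest, with a gap to the nearest other sample of 0.712 of the whole range. Both of its arrays detected the transcript, and 3 WT arrays did in all. Among the 6 DKO samples, Camp at ZT0 (5.82) stood apart by 0.730 of the range, although Camp was detected on 0 arrays, so this is a difference within background signal. About 1 group in 20 stands apart in this way by chance.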

How the results depend on the processing

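DKO ZT0 stayed above all other arrays for the 4 detected members in all 5 ways of making the values. The excess over the other DKO times was smaller with no background correction and with the authors' values, at 1.26 and 1.27 for S100a9, 3.94 and 3.96 for Prtn3, and 1.57 and 1.57 for Il1b. The same 2 settings lowered the genes counted as apart at each time, from 350 to 158 and 158 at ZT0, 78 to 43 and 44 at ZT4, 237 to 107 and 104 at ZT8, 246 to 108 and 110 at ZT12, 146 to 60 and 61 at ZT16, and 200 to 99 and 100 at ZT20, and median scaling gave 421 at ZT12. The daily mean test over ZT4 to ZT20 called 358 genes, and 1474 with median scaling, 603 with time as a factor, 0 with slide as a fixed block and 1 as a random block, and 680 with both ZT0 samples included, which was chosen after seeing the data. Median scaling shifted the median DKO minus WT difference of all genes from 0.02 to -0.26, and the share of calls higher in DKO from 45.0% to 8.01%. With arrays as separate samples it called 2205 without and 2107 with a replicate block, as the numbers do not pair the arrays. Such fits count technical arrays as independent, so their p-values are too small. Leaving out replicate 1 or 2 gave 206 or 190, and leaving out 1 time gave 0 to 182. The members called went from 0 to 1, Il1b, with time as a factor and with arrays as separate samples, with or without the replicate block, and Il1b turned to -1.33 and -0.78 with slide as a fixed and random block. Over the alternatives in which each gene was tested (20 for S100a8, 19 for S100a9 and Il1b, 18 for Prtn3) the limma adjusted p lay between 0.0552 and 0.974 for S100a8, 0.411 and 0.987 for S100a9, 0.291 and 0.996 for Prtn3 and 0.0127 and 0.894 for Il1b. Rhythm in WT called 13 genes and 0 members, and 27 with an offset of 50, 43 with no background correction, 123 with median scaling, 49 with the authors' values, 30 with probes detected on every array, 20 with all kept probes, 1655 and 1520 with arrays as separate samples without and with a replicate block, 0 and 8 with slide as a fixed or random block, 56 with an intensity trend, and 1 to 15 with 1 time left out, with 0 members called in each. Cyba lost its call also without replicate 1 (0.0708) and without replicate 2 (0.0502). Among other list genes, Wfdc21 (0.10) and Alb (0.32) turned with slide as a fixed block. The causes of these shifts were not tested. Prtn3, S100a9 and Elane are limited by signal close to background in most samples.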

Other observations

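The genes furthest above all other arrays in the DKO ZT0 liver were not granule genes, except for Prtn3. The trefoil peptide gene Tff3 stood 3.71 (log2) above the highest other array, more than Prtn3 at 3.30, followed by the B cell attractant Cxcl13 at 3.26. Dnajc12, a cochaperone gene, stood 2.33 above all other arrays and 3.17 above the other DKO arrays. The myeloid receptor genes Fcgr4, Sirpb1a and Fpr2 stood 2.26, 2.12 and 2.05 above, all more than S100a8, S100a9 and Il1b. Of the genes past a gap of 1, several were replication-dependent histone genes of the H2A family (H2ac12 1.61, H2ac10 1.38, H2ac7 1.36), near-identical copies whose probes may share signal. The cell cycle inhibitor gene Cdkn1a and the cytokinesis gene Prc1 stood 1.33 each. These genes were named after their values were seen, and the values come from 1 RNA sample.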
